A study of Mus musculus with 20 samples.

Results

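The hippocampus was compared between 2 groups of bulbectomised mice, 5 libraries from animals given YB-1 and 5 from animals given HSP70, which are 10 of the 20 libraries of the series. The 10 libraries were chosen by the tissue and treatment in their labels, and no measured value entered the choice. All animals were of the NMRI stock, an outbred laboratory mouse, and all had lost their olfactory bulbs by surgery, an operation that serves to mimic sporadic Alzheimer's disease. From day 14 after surgery each mouse received 1 recombinant chaperone through the nose, once a day for 21 days, either human HSP70 at 4 µg or YB-1 at 6.4 µg. The other 10 libraries are cortex from the same 2 treatments. Animals without surgery or given vehicle are not analysed here, so a value on the higher side with YB-1 can as well be read as a value on the lower side with HSP70. The 2 doses differ in mass, and dose and protein cannot be told apart. The labels do not name the animal behind a library, so p-values measure the spread between these libraries.

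HSP70 is a stress-inducible chaperone that binds unfolded protein chains together with co-chaperones of the DNAJ and BAG families. YB-1, the product of Ybx1, is a cold shock domain protein that binds DNA and RNA, takes part in messenger ribonucleoprotein granules and was first described through its binding to the Y box of MHC class II promoters. In the brain, interferons act through STAT and IRF transcription factors on an ISRE (interferon-stimulated response element) in the promoters of antiviral, GTPase and antigen presentation genes, and microglia, astrocytes and endothelial cells all respond to them. The meninges, the choroid plexus and blood-derived cells lie close to the hippocampus and can enter a dissected sample.

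The promoters of 4 interferon-induced genes are shown. The GTPase list had the highest median on the YB-1 side (0.88), and the antiviral list (0.71) lay below class II antigen presentation (0.77). The 4 genes are those of the antiviral and GTPase lists with the smallest p among genes that hold the ISRE core before their start. Genes on an excluded chromosome could not be chosen. The core was searched as GAAANNGAAA on both strands in RefSeq windows of GRCm38.p6, from 250 bases before to 50 bases after a gene's start. Capitals mark the core in either orientation. The stretches of 160 bases are chr3:142496749-142496908 on the plus strand for Gbp5, chr5:120907526-120907685 on the minus strand for Oas1a, chr19:34583353-34583512 on the plus strand for Ifit3 and chr11:49064213-49064372 on the minus strand for Tgtp2.
Gbp5: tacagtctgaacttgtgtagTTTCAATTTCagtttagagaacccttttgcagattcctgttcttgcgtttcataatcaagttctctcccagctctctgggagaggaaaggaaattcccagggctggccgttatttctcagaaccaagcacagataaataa
Oas1a: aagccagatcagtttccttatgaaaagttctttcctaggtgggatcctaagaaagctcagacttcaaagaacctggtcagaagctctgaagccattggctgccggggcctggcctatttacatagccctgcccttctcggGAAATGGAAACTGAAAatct
Ifit3: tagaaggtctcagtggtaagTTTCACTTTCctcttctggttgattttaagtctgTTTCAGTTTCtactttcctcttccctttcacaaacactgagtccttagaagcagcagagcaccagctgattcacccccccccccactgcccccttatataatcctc
Tgtp2: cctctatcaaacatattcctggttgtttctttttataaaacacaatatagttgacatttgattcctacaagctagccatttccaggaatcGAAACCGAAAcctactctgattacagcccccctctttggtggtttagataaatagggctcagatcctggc
The core starts 165 bases before the start of Gbp5 and 70 bases before that of Tgtp2. Oas1a holds 2 overlapping copies within 20 bases of its start, and Ifit3 holds 2 separate copies, the farther 156 bases before its start. In all, the core was found in 13 of 27 antiviral interferon-stimulated genes with a window (48.1%) and in 9 of 10 interferon-induced GTPase genes (90%), against 382 of 10498 tested genes (3.64%) and 3.44% of all 32851 windows. The GAS core, TTCNNNGAA, reads the same on both strands and can overlap the ISRE core. It was in 6 of 10 GTPase genes with a window (60%) and 8.1% of tested genes.

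A second pair shows MHC genes whose window holds the core of the Y box, CTGATTGG on either strand, here also in capitals. The stretches are chr17:35424690-35424849 on the plus strand for H2-Q6, a class I gene, and chr17:34092219-34092378 on the plus strand for H2-Oa, a class II gene.
H2-Q6: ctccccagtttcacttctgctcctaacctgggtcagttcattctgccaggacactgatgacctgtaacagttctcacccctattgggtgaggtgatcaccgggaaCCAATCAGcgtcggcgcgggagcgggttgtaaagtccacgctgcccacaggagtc
H2-Oa: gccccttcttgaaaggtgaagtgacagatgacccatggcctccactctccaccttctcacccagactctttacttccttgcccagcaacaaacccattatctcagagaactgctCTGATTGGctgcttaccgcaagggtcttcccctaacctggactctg
The Y-box core was found in 8 of 20 class I antigen presentation genes (40%), 3 of 9 class II genes (33.3%) and 9 of 21 unfolded protein response genes (42.9%), against 6.25% of tested genes. It was in 0 of 27 antiviral and 0 of 10 GTPase genes with a window. A match describes the letters of the window and not binding by a factor.

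Each HSP70 library counted 7756835 to 13053910 reads in genes, and the YB-1 libraries, with 7236195 to 10166968 reads, overlapped that range. Most markers of hippocampus and cortex had their higher median in the labelled tissue, but not all. The dentate genes Prox1 and C1ql2 had medians of 19.99 and 132 CPM (TMM-scaled counts scaled to a common library size) in hippocampus against 3.397 and 8.43 CPM in cortex, and the upper-layer cortical gene Cux2 had 26.7 against 102 CPM. The deep-layer cortical genes Fezf2 (31.7 against 19.9 CPM) and Tle4 (22.3 against 18.3 CPM) had the higher median in hippocampus, and the CA1 marker Wfs1 was at 203 against 209 CPM. Over the 500 most variable genes, HSP70 replicate 5 stood apart on the first principal component (33.1% of the variance), and HSP70 replicate 2 and YB-1 replicate 4 lay together at one end of the second (26%). Neither component separated the treatments. HSP70 replicate 4 had the highest level of thalamic markers, with 707 CPM summed over the 13 matched markers against 217 to 577 CPM in the other 9 libraries. Bc1, a neuronal noncoding RNA, took 6.45% to 20.3% of reads with HSP70 and 3.92% to 20.8% with YB-1.

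No gene passed the test. At an adjusted p of 0.05, 0 of 13723 genes (0%) were called by edgeR's quasi-likelihood test, and the lowest adjusted p was 1. At an unadjusted p under 0.05 there were 329 genes (2.4%), of which 194 (1.41%) were higher and 135 (0.984%) lower with YB-1. DESeq2 and limma-voom also called 0, and counted 390 and 729 genes below the unadjusted threshold. The log2 fold change, YB-1 over HSP70, was above 0 for 49.3% of genes, and its quartiles over all genes were -0.12 and 0.13. In 63 genes (0.459%) the values of the 2 groups did not overlap, 24 on the higher side (0.175%) and 39 on the lower (0.284%). All values below are therefore descriptions of 10 libraries in which no single gene was told apart from the spread.

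**Figure D1:**
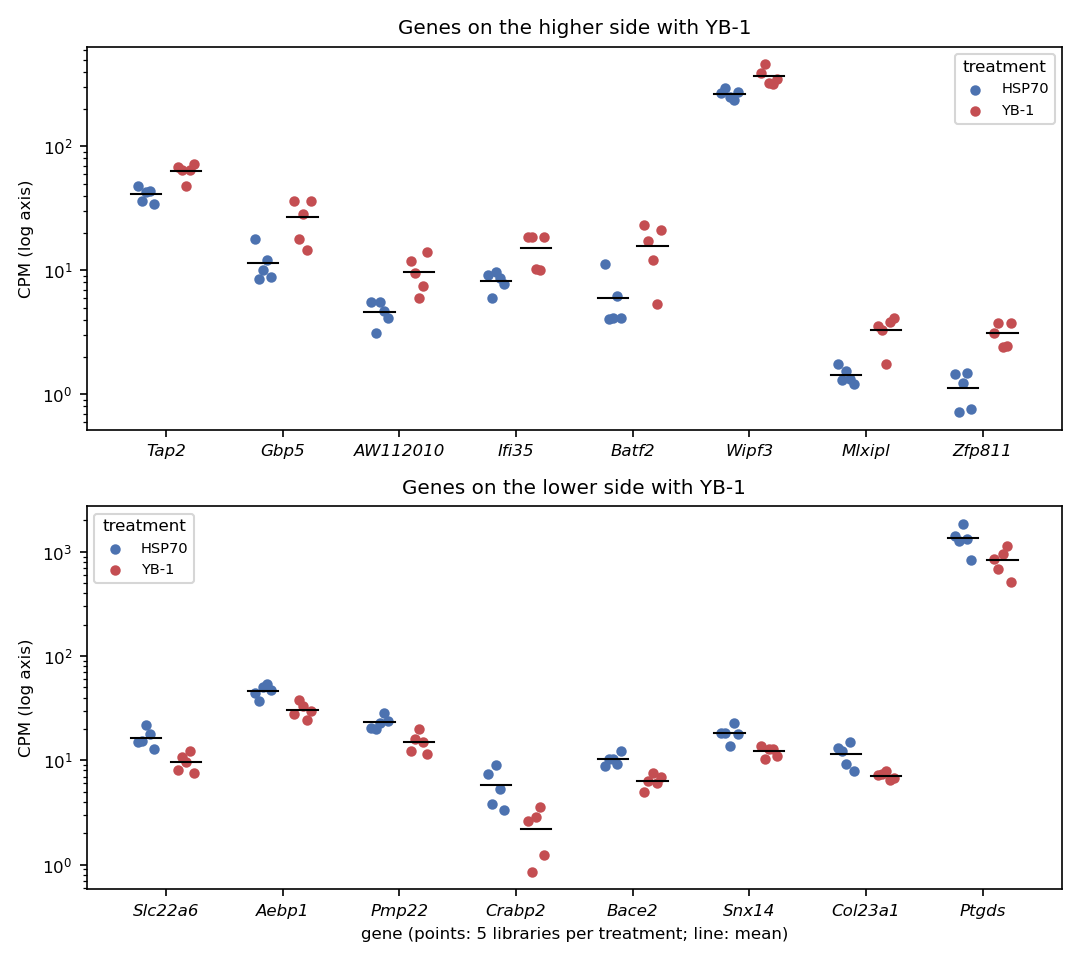
CPM on a log axis of 8 genes on the higher side with YB-1 (top) and 8 on the lower side (bottom), among those with the smallest unadjusted p. Each point is 1 library, 5 per treatment, and the line is the mean; Ifi35 spans 5.97 to 9.79 CPM in the HSP70 group and 10.02 to 18.7 CPM in the YB-1 group, without overlap, while Gbp5 and Batf2 overlap.

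The endogenous genes of the 2 chaperones gave no difference past the test. Hspa1a, an inducible HSP70 gene, was at 2.71, 6.93, 5.98, 1.48 and 3.97 CPM with HSP70 and 1.63, 2.44, 3.11, 2.88 and 3.41 CPM with YB-1. Its highest values were 6.93 and 5.98 CPM in HSP70 replicates 2 and 3, and the groups overlapped; the log2 fold change was -0.63 ± 0.40 (SE), or -0.38 without HSP70 replicate 2 and -0.86 without HSP70 replicate 4. Hspa1b, a near-identical copy whose reads cannot be told apart from those of Hspa1a with certainty, was at 12.1, 12.2, 11.03, 11.3 and 5.03 CPM with HSP70 and 12.5, 12.6, 11.2, 10.4 and 9.66 CPM with YB-1. Only HSP70 replicate 5 stood low, and without it the fold change went from 0.12 to -0.05. Hspa8, the constitutive family member, was at 958, 975, 1146, 939.8 and 1205 CPM with HSP70 and 949, 965, 1123, 1049.5 and 1039.8 CPM with YB-1, the groups interleaved. Ybx1 was at 147, 143, 120.5, 185 and 144 CPM with HSP70 and 157, 136, 155, 97.5 and 109 CPM with YB-1. Its highest value was in HSP70 replicate 4 and its lowest in YB-1 replicate 4, and the fold change was -0.18 ± 0.16, or -0.08 without HSP70 replicate 4.

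Most genes of the antiviral interferon response lay higher in the YB-1 group, though none past the test. Of 44 matched antiviral genes 38 passed the filter on low counts, and 36 of these 38 had a log2 fold change above 0, with a median of 0.71 against -0.0031 over all genes. 15 of them had an unadjusted p under 0.05 on the higher side and 0 on the lower, where all genes gave 1.41% and 0.984%. The 2 exceptions were Cmpk2 and Mx2. The groups nevertheless overlapped in 37 of the 38, Ifi35 being the exception.

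Ifi35, an interferon-induced leucine zipper protein, was at 9.11, 5.97, 9.79, 8.72 and 7.78 CPM with HSP70 and 18.5, 18.7, 10.3, 10.02 and 18.7 CPM with YB-1. Its log2 fold change was 0.88 ± 0.24, and YB-1 replicates 3 and 4, at 10.3 and 10.02 CPM, lay just above the highest HSP70 library at 9.79 CPM. Oas1a, an enzyme that makes the 2-5A activator of RNase L, was at 10.9, 3.58, 6.91, 9.09 and 9.46 CPM with HSP70 and 16.7, 17.6, 11.1, 6.73 and 19.9 CPM with YB-1. YB-1 replicate 4 lay inside the HSP70 range here, and the fold change was 0.85 ± 0.32. Ifih1, the cytosolic sensor MDA5, was at 5.52, 1.91, 2.47, 2.66 and 5.797 CPM with HSP70 and 7.72, 7.45, 4.59, 5.49 and 7.96 CPM with YB-1, with a fold change of 0.87 ± 0.33. Its 3 lowest libraries were HSP70 replicates 2, 3 and 4, while HSP70 replicates 1 and 5 lay among the YB-1 libraries. Ifit3, which blocks the translation of viral RNA, was at 43.99, 21.6, 24.9, 25.4 and 29.7 CPM with HSP70 and 49.4, 33.97, 67.4, 23.5 and 66.3 CPM with YB-1. HSP70 replicate 1 lay above 2 of the YB-1 libraries, and the fold change was 0.72 ± 0.27. Lgals3bp, the antiviral gene with the most reads, was at 164, 88.9, 112, 163 and 134 CPM with HSP70 and 211, 242, 127, 96.1 and 236 CPM with YB-1, with a fold change of 0.46 ± 0.25 and a broad overlap.

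Of the interferon-induced GTPases, which attack the vacuoles of intracellular pathogens, all 15 tested of 17 matched were above 0, with a median of 0.88. An unadjusted p under 0.05 was found for 6, against 1.41% of all genes on the higher side. Gbp5 was at 18.02, 8.599, 9.997, 12.2 and 8.85 CPM with HSP70 and 36.5, 17.8, 28.8, 14.7 and 36.3 CPM with YB-1, with a fold change of 1.21 ± 0.28 and an unadjusted p of 0.000599 in edgeR's test (adjusted p 1). HSP70 replicate 1, at 18.0 CPM, lay above YB-1 replicates 2 and 4. Ifi47, an immunity-related GTPase, was at 33.5, 9.91, 19.4, 21.1 and 20.1 CPM with HSP70 and 70.97, 37.3, 47.7, 18.3 and 60.3 CPM with YB-1, and YB-1 replicate 4 lay below 4 of the 5 HSP70 libraries. Its fold change was 1.17 ± 0.35. Tgtp2, whose near-identical neighbour Tgtp1 makes its counts uncertain, was at 13.9, 4.06, 5.46, 5.25 and 6.86 CPM with HSP70 and 21.7, 14.4, 11.3, 4.53 and 22.4 CPM with YB-1, with a fold change of 1.07 ± 0.41. Igtp, the GTPase gene with the most reads, ran from 49.2 CPM in HSP70 replicate 2 to 367 CPM in YB-1 replicate 1, at 0.88 ± 0.46.

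The libraries kept much the same places across these genes. Expressed as the mean log2 CPM of the members minus the mean of the 10 libraries, the antiviral list stood at 0.36, -0.75, -0.52, -0.25 and -0.40 in HSP70 replicates 1 to 5 and at 0.76, 0.26, 0.43, -0.58 and 0.69 in YB-1 replicates 1 to 5. HSP70 replicate 1 was thus above YB-1 replicate 2, and YB-1 replicate 4 below 4 HSP70 libraries, so the groups overlapped. For the GTPases the levels were 0.61, -1.17, -0.78, -0.25 and -0.40 with HSP70 and 1.38, 0.06, 0.03, -0.70 and 1.21 with YB-1. Without YB-1 replicate 4 the antiviral median over 38 genes was 0.85, and without HSP70 replicate 2 it was 0.58. Over the 10 fits that leave out 1 library it lay between 0.56 and 0.92, with 34 to 38 genes above 0, and the GTPase median between 0.60 and 1.27, with 15 of 15.

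**Figure D2:**
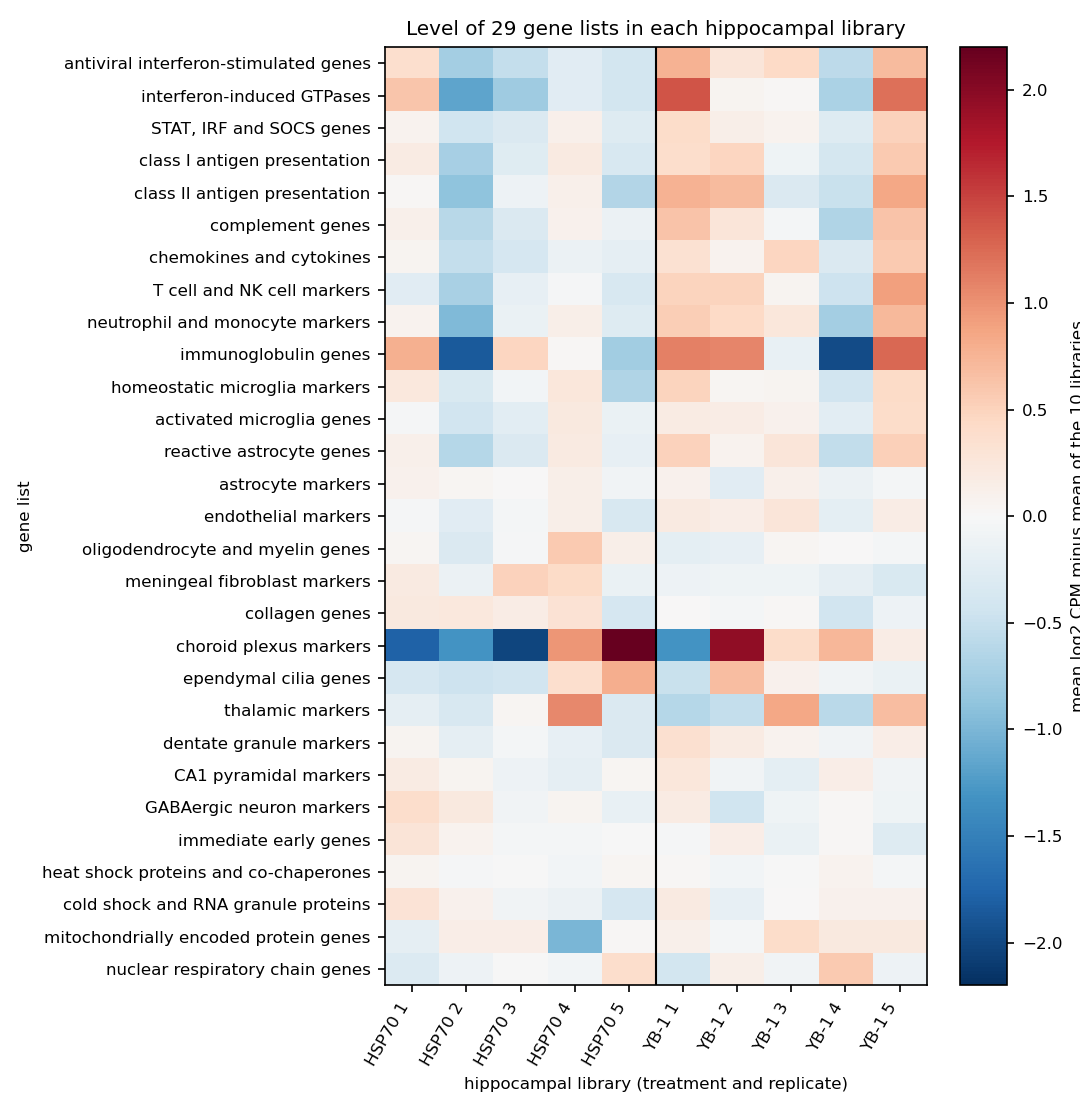
Level of 29 gene lists (rows) in the 10 hippocampal libraries (columns; the line separates HSP70 from YB-1), as mean log2 CPM of the members minus the mean of the 10 libraries. HSP70 replicate 2 and YB-1 replicate 4 are low across the interferon, antigen presentation and immunoglobulin rows (immunoglobulin -1.84 and -1.96), and the choroid plexus row runs from -2.01 to 2.19 within the HSP70 group.

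Upstream of these genes, the signalling members were on the higher side to a lesser extent. Of 27 STAT, IRF and SOCS genes 22 were above 0, with a median of 0.26. Irf1, Stat2 and Irf8 were the 3 at an unadjusted p under 0.05, all higher, where all genes gave 1.41% on that side. Without HSP70 replicate 2 the median was 0.17. Irf1, a transcription factor induced by interferon gamma, was at 50.97, 23.1, 33.7, 42.6 and 44.4 CPM with HSP70 and 68.03, 56.9, 68.9, 36.8 and 108 CPM with YB-1. HSP70 replicate 2 was the lowest and YB-1 replicate 5 the highest, and the fold change was 0.80 ± 0.26. Stat2, a subunit of the factor that binds the ISRE, was at 33.9, 16.8, 19.5, 18.8 and 18.2 CPM with HSP70 and 42.9, 32.3, 28.5, 17.9 and 45.8 CPM with YB-1, with a fold change of 0.64 ± 0.25. Irf8, an IRF of myeloid cells, was at 0.64 ± 0.26, and at 0.43 without YB-1 replicate 5. Of the interferons and their receptors 10 of 16 matched genes were tested, 7 of them above 0 with a median of 0.19 and 0 at an unadjusted p under 0.05, while 3 had no read in any library. Without YB-1 replicate 1 that median was 0.088.

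MHC and peptide-loading genes lay on the same side. Of 23 class I antigen presentation genes 19 were above 0 with a median of 0.39. On the higher side 9 had an unadjusted p under 0.05, against 1.41% of all genes. Tap2, a subunit of the transporter that carries peptides to class I molecules, was at 47.8, 36.4, 42.8, 43.5 and 34.5 CPM with HSP70 and 68.5, 64.2, 47.7, 64.8 and 72.2 CPM with YB-1. All YB-1 libraries except replicate 3 lay above the HSP70 range, and replicate 3, at 47.7 CPM, fell just under the highest HSP70 value of 47.8 CPM. The fold change of 0.63 ± 0.14 had the smallest unadjusted p of all genes, 0.000559 in edgeR's test, and an adjusted p of 1. H2-T23, which encodes the non-classical class I molecule Qa-1, was at 45.1, 35.6, 37.3, 41.9 and 24.3 CPM with HSP70 and 81.2, 79.4, 37.8, 29.9 and 79.4 CPM with YB-1, and YB-1 replicates 3 and 4 lay inside the HSP70 range. H2-Q6, from the group shown above with a Y-box core, was at 48.1, 28.1, 33.1, 48.2 and 17.4 CPM with HSP70 and 77.3, 89.9, 41.3, 31.9 and 72.4 CPM with YB-1, and belongs to a cluster of closely similar genes between which reads may be split. The 2 fold changes were 0.74 ± 0.27 and 0.83 ± 0.31.

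Class II genes had a higher median, 0.77, with 11 of 12 above 0. An unadjusted p under 0.05 was found for 4, against 1.41% of all genes on the higher side. H2-DMb2 and H2-DMb1, chains of the molecule that loads class II with peptide, were at 1.06 ± 0.35 and 1.05 ± 0.39. H2-DMb1 was at 18.1, 5.61, 15.3, 13.5 and 21.1 CPM with HSP70 and 40.2, 40.8, 19.3, 10.6 and 40.3 CPM with YB-1. YB-1 replicates 1, 2 and 5 stood near 40 CPM, above every HSP70 library, while replicates 3 and 4 lay within the HSP70 range. H2-Oa, which restrains that loading step, was at 7.95, 4.897, 7.01, 9.16 and 7.17 CPM with HSP70 and 20.5, 17.4, 9.05, 3.57 and 18.5 CPM with YB-1, with a fold change of 0.93 ± 0.36 and the lowest value of all in YB-1 replicate 4. Cd74, the invariant chain and the class II gene with the most reads, spanned 587 to 2047 CPM in the HSP70 group and 657 to 2355 CPM in the YB-1 group. Its fold change of 0.56 ± 0.46 became 0.88 without HSP70 replicate 4 and 0.39 without HSP70 replicate 2.

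Complement genes followed with 16 of 17 tested above 0 and a median of 0.37. On the higher side 2 had an unadjusted p under 0.05, against 1.41% of all genes. C3, the central component, was at 46.03, 15.8, 31.4, 49.2 and 46.99 CPM with HSP70 and 87.5, 89.6, 43.1, 24.03 and 134 CPM with YB-1, with a fold change of 0.998 ± 0.45, and C1qc, a chain of the C1q recognition molecule made by microglia, was at 0.56 ± 0.24. C4b, with the most reads of the list, was at 559, 305, 477, 483 and 380.3 CPM with HSP70 and 674, 752, 451, 341 and 755 CPM with YB-1. YB-1 replicates 1, 2 and 5 lay above all HSP70 libraries and the other two inside their range. Of 23 chemokines and cytokines 18 were above 0, with a median of 0.22. On the higher side 8 had an unadjusted p under 0.05, against the same share of all genes. Cxcl11 and Cxcl9, interferon-induced ligands of the chemokine receptor CXCR3, had fold changes of 1.67 ± 0.50 and 1.31 ± 0.46. Cxcl9 was at 9.98, 4.66, 3.504, 6.87 and 5.34 CPM with HSP70 and 17.6, 10.02, 20.3, 2.61 and 24.9 CPM with YB-1. The lowest of the 10 values was in YB-1 replicate 4 and the highest in YB-1 replicate 5. Ccl5, which attracts T cells, was at 0.99 ± 0.37, and the NF-kappaB list had 14 of 18 above 0 with a median of 0.19, or 0.076 without HSP70 replicate 2.

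Markers of white blood cells lay on the same side as these genes. Erythroid genes did not (4 of 6 below 0, median -0.44, or 0.004 without HSP70 replicate 5). All 12 tested of 16 T cell and NK cell markers were above 0, with a median of 0.59. An unadjusted p under 0.05 was found for 4, against 1.41% of all genes on the higher side. The summed level of all 16 was low, 23.2 to 39.7 CPM with HSP70 and 30.3 to 75.97 CPM with YB-1. Cd3g, a chain of the T cell receptor complex, was at 0.775, 1.55, 1.13, 1.55 and 0.305 CPM with HSP70 and 3.26, 2.93, 1.22, 1.51 and 3.599 CPM with YB-1. Cd4 was at 1.45, 2.87, 3.401, 2.66 and 2.44 CPM with HSP70 and 4.02, 4.52, 2.43, 2.61 and 11.7 CPM with YB-1, and its fold change of 0.99 ± 0.42 became 0.41 without YB-1 replicate 5. None of the 16 markers was at 0 reads in all libraries. Of the neutrophil and monocyte markers 5 of 15 passed the filter, with 4 above 0, and Ly6c2, a monocyte and lymphocyte surface gene, was at 27.1, 4.06, 28.5, 15.9 and 11.1 CPM with HSP70 and 70.8, 79.4, 24.4, 9.2003 and 61.7 CPM with YB-1. YB-1 replicates 1, 2 and 5 stood at over 60 CPM and no HSP70 library above 28.5 CPM.

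Immunoglobulin genes, products of B and plasma cells, had 106 of 396 entries with enough reads, 86 of them above 0 with a median of 0.65, and 150 had no read in any library. Of the 106, only 3 had an unadjusted p under 0.05, all on the higher side, where all genes gave 1.41%. The median ran from 0.38 without YB-1 replicate 5 to 1.05 without HSP70 replicate 1. Over the fits without 1 library, 69 to 90 genes were above 0. Summed, all 396 entries took 835 to 4222 CPM in the HSP70 libraries and 642 to 6651 CPM in the YB-1 libraries. Igkc, the kappa constant gene, was at 1671, 338, 1624, 878 and 704 CPM with HSP70 and 2589.5, 2784, 988, 281 and 2432 CPM with YB-1. HSP70 replicate 2 and YB-1 replicate 4 were the lowest in each group, as for the interferon genes. The B cell and plasma cell markers had a median of 0.63 (10 of 11 above 0), or 0.35 without HSP70 replicate 2. With the immunoglobulin level of each library as a covariate, an alternative chosen after the data were seen, the antiviral median was 0.51 with 32 of 38 genes above 0, and the GTPase median 0.48 with 15 of 15. In that fit the class II median was 0.39 and the class I median 0.27. Also in that fit, the median was 0.14 for complement genes (13 of 17 above 0) and 0.16 for reactive astrocyte genes. It was 0.096 for homeostatic microglia (14 of 20) and -0.037 for interferons and their receptors (4 of 10). For B cell and plasma cell markers it was 0.026 (6 of 11). That list shares Igkc with the immunoglobulin list behind the covariate, so its value here is partly fixed by the covariate. In bulk tissue, more cells of a type and more RNA per cell cannot be told apart.

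**Figure D3:**
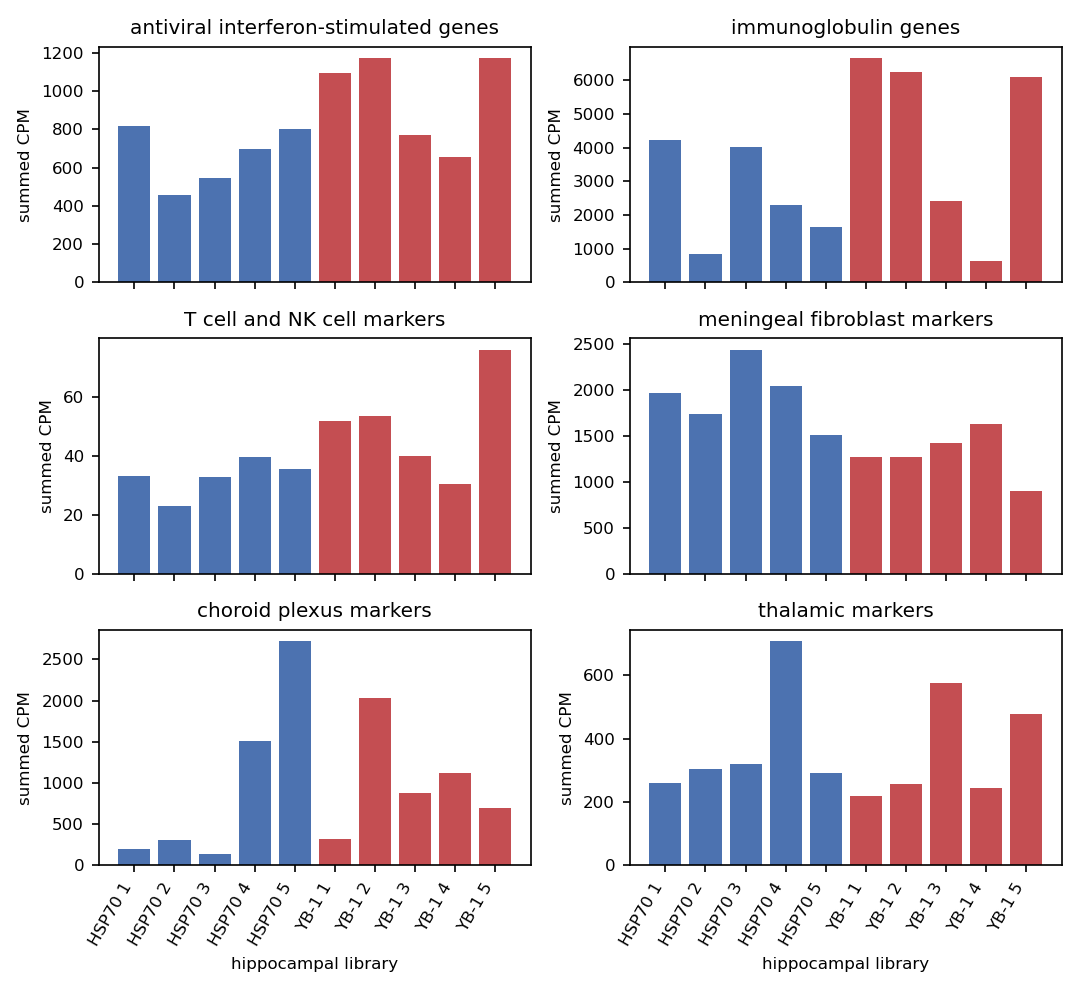
Summed CPM of 6 gene lists in each hippocampal library, HSP70 in blue and YB-1 in red, on axes that start at 0. The antiviral list reaches 1172 CPM in YB-1 replicate 5 and is lowest, at 455 CPM, in HSP70 replicate 2; immunoglobulin genes span 642 to 6651 CPM and choroid plexus markers 137 to 2723 CPM.

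Glial lists were divided by cell type. Of 23 reactive astrocyte genes 19 were above 0 with a median of 0.27. On the higher side 5 had an unadjusted p under 0.05, against 1.41% of all genes. The list shares 11 genes with other lists, among them Gbp2 (0.76 ± 0.32, or 0.51 without YB-1 replicate 1) and the immunoproteasome gene Psmb8 (0.60 ± 0.25). Gfap, the astrocyte filament and the gene of the list with the most reads, was at 1581, 1359, 1684, 2276 and 1705 CPM with HSP70 and 2139.9, 1987, 1840.2, 1208 and 2112 CPM with YB-1. The groups overlapped, with HSP70 replicate 4 highest and YB-1 replicate 4 lowest, and the fold change was 0.11 ± 0.17, or 0.036 without HSP70 replicate 2 and 0.23 without HSP70 replicate 4. Of 20 general astrocyte markers only 6 were above 0, with a median of -0.09, or -0.044 without YB-1 replicate 4 and -0.14 without YB-1 replicate 1. Without YB-1 replicate 1 the reactive median was 0.17, and without YB-1 replicate 4 it was 0.46.

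Microglial markers were slightly on the higher side, 18 of 20 homeostatic genes with a median of 0.20 and 18 of 22 activation genes with a median of 0.15. Single libraries moved both: the homeostatic median was 0.12 without YB-1 replicate 5 and 0.38 without HSP70 replicate 4, and the activation median 0.089 without HSP70 replicate 2 and 0.25 without HSP70 replicate 4. Csf1r, the receptor that keeps microglia alive, was at 379, 282, 349.9, 510.1 and 360.2 CPM with HSP70 and 442, 538, 369.9, 264 and 565 CPM with YB-1, a fold change of 0.21 ± 0.20 that became 0.10 without YB-1 replicate 5. P2ry13, a purinergic receptor of resting microglia, was at 11.2, 8.599, 10.6, 11.9 and 8.85 CPM with HSP70 and 18.4, 14.2, 15.7, 8.24 and 14.3 CPM with YB-1. YB-1 replicate 4 was the lowest of all and the other 4 YB-1 libraries lay above the HSP70 range. Fcrls went the other way, with 1.74, 1.67, 1.75, 1.92 and 1.98 CPM with HSP70 and 0.543, 0.611, 1.62, 0.275 and 0.379 CPM with YB-1. The HSP70 libraries lay within a narrow range and all YB-1 libraries below it, few reads in every library, and the fold change was -1.41 ± 0.46. Cst7, an inhibitor of cathepsins in activated microglia, was at 1.06 ± 0.47, and Ctsz, a cathepsin, at 0.39 ± 0.17.

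Myelin genes were on the lower side, 22 of 25 with a median of -0.21 and 2 at an unadjusted p under 0.05, where all genes gave 0.984% on that side. Car2, a carbonic anhydrase of oligodendrocytes, was at 91.2, 88.6, 88.2, 124 and 96.9 CPM with HSP70 and 71.7, 64.6, 71.2, 87.3 and 79.2 CPM with YB-1. The groups did not overlap, although HSP70 replicate 3 at 88.2 CPM and YB-1 replicate 4 at 87.3 CPM almost touched. Mbp, myelin basic protein, was at 2632, 2524, 3725, 4474 and 4402 CPM with HSP70 and 2356, 2889, 3351, 2985 and 2978 CPM with YB-1, a fold change of -0.29 ± 0.17 that became -0.19 without HSP70 replicate 4. That library, which also had the most thalamic marker reads, had the highest myelin level at 0.58 above the mean. Without it the list's median was -0.064. Apod, a lipid carrier, likewise went from -0.47 to -0.25. The libraries next in thalamic level, YB-1 replicates 3 and 5 (0.85 and 0.68), had myelin levels of 0.04 and -0.05. HSP70 replicate 5, next in myelin at 0.12, had a thalamic level of -0.32. Whether the thalamic and myelin levels go together was not tested. Of 14 oligodendrocyte precursor markers 4 were above 0, with a median of -0.06 that turned to 0.0016 (7 of 14) without HSP70 replicate 4 and to 0.020 with limma-voom.

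Markers of meningeal fibroblasts lay on the lower side with YB-1. Of 22 tested 20 were below 0, with a median of -0.34, and 6 had an unadjusted p under 0.05, against 0.984% of all genes. Slc22a6, an organic anion transporter of the arachnoid, was at 14.9, 15.4, 21.6, 17.9 and 12.97 CPM with HSP70 and 8.15, 10.8, 9.59, 12.2 and 7.48 CPM with YB-1. No YB-1 library reached the lowest HSP70 library, and the fold change was -0.79 ± 0.20. Ptgds, the prostaglandin D synthase of the leptomeninges, was at 1433, 1272, 1861, 1329 and 830.0 CPM with HSP70 and 855, 681, 946, 1141 and 510.3 CPM with YB-1. YB-1 replicates 1, 3 and 4 lay above HSP70 replicate 5, and the fold change was -0.70 ± 0.22. Crabp2, a retinoic acid carrier, was at 7.36, 3.82, 9.07, 5.32 and 3.36 CPM with HSP70 and 2.61, 0.855, 2.84, 3.57 and 1.23 CPM with YB-1, and Aebp1, a matrix protein, at 44.4, 36.8, 50.6, 54.5 and 47.1 CPM with HSP70 and 28.04, 38.002, 33.2, 24.3 and 29.6 CPM with YB-1. Their fold changes were -1.40 ± 0.40 and -0.61 ± 0.15.

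The level of the meningeal list was 0.20, -0.13, 0.50, 0.42 and -0.15 with HSP70 and -0.12, -0.10, -0.09, -0.19 and -0.34 with YB-1. HSP70 replicates 1, 3 and 4 lay above all YB-1 libraries and HSP70 replicates 2 and 5 among them. Leaving out 1 library gave medians between -0.47 and -0.23. Of the collagens 24 of 44 were tested, with 17 below 0 and a median of -0.16, or -0.31 without HSP70 replicate 5. Col23a1, a membrane collagen, was at 13.1, 12.2, 9.17, 15.1 and 7.93 CPM with HSP70 and 7.17, 7.45, 7.83, 6.45 and 6.73 CPM with YB-1, and Col6a2, a chain of the microfibrillar collagen VI, at 21.9, 20.4, 29.9, 18.03 and 18.8 CPM with HSP70 and 13.9, 13.4, 17.8, 16.1 and 14.02 CPM with YB-1. Neither gene's groups overlapped, and the fold changes were -0.69 ± 0.21 and -0.54 ± 0.17. Col1a2, a chain of collagen I, did overlap, at -0.44 ± 0.24, or -0.21 without HSP70 replicate 4.

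Other genes of the brain's borders and vessels varied by library. Of 13 border macrophage markers 6 were tested, 5 of them below 0 with a median of -0.41, or -0.17 without HSP70 replicate 4. F13a1, a transglutaminase of these macrophages, was at 2.81, 1.79, 1.96, 5.03 and 0.915 CPM with HSP70 and 0.435, 0.122, 0.945, 1.65 and 0.379 CPM with YB-1, few reads in every library. Endothelial markers were above 0 in 19 of 20 cases, with a median of 0.17 or 0.27 without YB-1 replicate 4. Ly6e, a surface protein that interferon induces, was at 452, 417, 442, 441 and 509 CPM with HSP70 and 628, 586, 513, 486 and 591 CPM with YB-1. YB-1 replicates 3 and 4, at 513 and 486 CPM, lay near HSP70 replicate 5 at 509 CPM, and the fold change was 0.31 ± 0.11. Vwf, a clotting factor of endothelium, had fold changes of 0.47 in all libraries and 0.30 without YB-1 replicate 3.

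Choroid plexus markers gave no stable direction. Summed over 18 genes they were at 199, 308, 137, 1515 and 2723 CPM with HSP70 and at 321, 2035, 880.008, 1120 and 692 CPM with YB-1. HSP70 replicates 1, 2 and 3 and YB-1 replicate 1 held few such reads and each of the other 6 libraries at least 692 CPM. The list's median of 0.19 ran from -0.56 without YB-1 replicate 2 to 1.12 without HSP70 replicate 5. With the choroid plexus level as a covariate the antiviral median was 0.79 and the meningeal median -0.39. Prlr, the prolactin receptor, was at 2.13, 1.91, 1.75, 1.63 and 7.93 CPM with HSP70 and 3.804, 5.38, 7.83, 5.905 and 4.74 CPM with YB-1, and its one high HSP70 library was replicate 5.

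Neuronal lists lay close to the median of all genes, with 2 departures. Dentate granule cell markers were above 0 in 12 of 14 cases, with a median of 0.21. On the higher side 3 had an unadjusted p under 0.05, against 1.41% of all genes. Lct, a dentate-enriched gene named for intestinal lactase, was at 22.6, 14.8, 31.1, 27.7 and 29.7 CPM with HSP70 and 54.4, 55.5, 33.2, 28.01 and 32.8 CPM with YB-1. All YB-1 libraries except replicate 4 lay above the HSP70 range, with a fold change of 0.70 ± 0.23. Dsp, a desmosomal protein of granule cells, had a single high library, 10.1, 3.82, 6.49, 9.31 and 12.2 CPM with HSP70 and 9.02, 36.05, 13.5, 10.99 and 13.4 CPM with YB-1. Without YB-1 replicate 2 its fold change went from 0.99 to 0.48. The dentate median was 0.14 without YB-1 replicate 1 and 0.32 without YB-1 replicate 4.

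GABAergic markers were below 0 in 14 of 20 cases, with a median of -0.17, or -0.10 without HSP70 replicate 1. Sst, the neuropeptide somatostatin, was at 199, 204, 138, 245 and 170.1 CPM with HSP70 and 136, 111, 143, 185 and 123 CPM with YB-1. HSP70 replicate 3 lay below 2 of the YB-1 libraries, and the fold change was -0.46 ± 0.17. Tac1, which encodes substance P, was at 5.52, 6.33, 9.48, 8.498 and 8.39 CPM with HSP70 and 3.91, 1.96, 8.91, 4.26 and 4.45 CPM with YB-1, with a fold change of -0.71 ± 0.33 or -1.06 without YB-1 replicate 3. In the cortex 0 of the 20 genes were above 0, with a median of -0.31, but no test of the difference between tissues called any gene.

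Among pyramidal and general neuronal genes single members stood out. Zbtb20, a transcription factor of hippocampal pyramidal neurons, was at 38.4, 34.4, 35.5, 24.8 and 19.98 CPM with HSP70 and 53.7, 38.7, 41.05, 68.8 and 42.5 CPM with YB-1, without overlap and with a fold change of 0.68 ± 0.21. The CA1 list as a whole had 5 of 11 above 0 and a median of -0.01. Nefm, a neurofilament subunit, was at 128, 109, 106, 91.3 and 99.6 CPM with HSP70 and 132, 132, 152, 139 and 131 CPM with YB-1, also without overlap, at 0.36 ± 0.12. The pan-neuronal median was 0.03, the excitatory median 0.02, the postsynaptic median 0.09 and the presynaptic median 0.02; the postsynaptic median was 0.019 without YB-1 replicate 1 and 0.16 without HSP70 replicate 1. Camk2a, the postsynaptic gene with the most reads, was at 2944, 2803, 2717, 2677 and 2442 CPM with HSP70 and 3291, 3691, 3439, 2279 and 2869 CPM with YB-1, with YB-1 replicate 4 the lowest of all.

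Activity-induced immediate early genes had 9 of 27 above 0 with a median of -0.05 and 0 at an unadjusted p under 0.05, and without YB-1 replicate 2 the median was -0.16. Npas4, an activity-dependent transcription factor, was at 6.78, 2.15, 1.86, 1.48 and 2.29 CPM with HSP70 and 2.17, 1.59, 2.03, 2.197 and 0.284 CPM with YB-1. HSP70 replicate 1 alone was high, and without it the fold change went from -0.83 to -0.24. Bdnf, the neurotrophin, was at 11.4, 8.36, 7.83, 7.54 and 7.32 CPM with HSP70 and 15.1, 8.06, 10.4, 12.4 and 8.81 CPM with YB-1, with overlapping groups and a fold change of 0.36 ± 0.22, or 0.22 without YB-1 replicate 1.

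**Figure D4:**
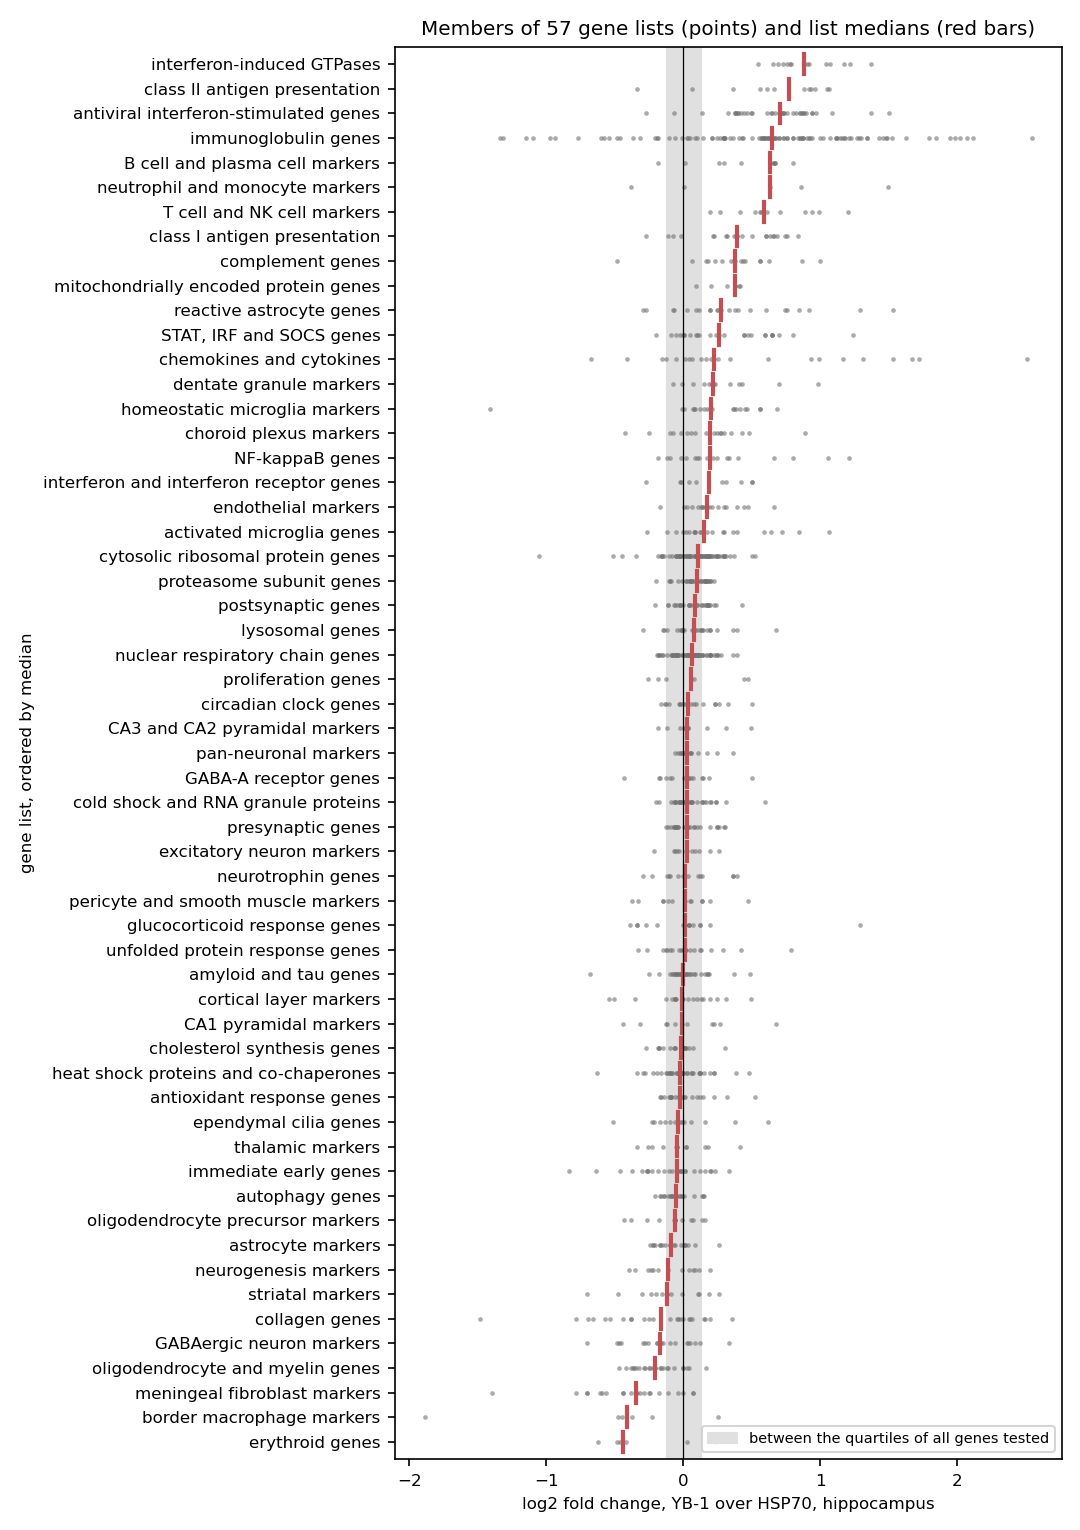
Log2 fold changes, YB-1 over HSP70, of the tested members (points) of 57 gene lists, ordered by their medians (red bars); the grey band lies between the quartiles of all 13723 genes, -0.12 and 0.13. Interferon, class II and lymphoid lists are at the top, with the GTPase median at 0.88, and meningeal, border macrophage and erythroid lists at the bottom.

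The lists nearest to the treatments showed no common direction. Of 43 heat shock proteins and co-chaperones 16 were above 0, with a median of -0.02. On the higher side only 1 of the 43 had an unadjusted p under 0.05, against 1.41% of all genes. That gene was Hspe1, the mitochondrial co-chaperone of HSP60, at 32.8, 32.8, 31.02, 29.04 and 23.04 CPM with HSP70 and 32.7, 38.002, 37.4, 64.8 and 34.8 CPM with YB-1. YB-1 replicate 4 was the high library, and without it the fold change went from 0.48 to 0.26. Hsp90aa1, the inducible cytosolic HSP90, was likewise highest in YB-1 replicate 4 at 381 CPM, against 142 to 231 CPM in the other 9 libraries. Of 33 cold shock and RNA granule genes 20 were above 0 with a median of 0.02. Taf15, an RNA-binding protein, was at 18.8, 12.5, 13.4, 7.09 and 9.001 CPM with HSP70 and 19.8, 16.01, 19.98, 17.9 and 18.6 CPM with YB-1, with HSP70 replicate 1 inside the YB-1 range and a fold change of 0.60 ± 0.23. The unfolded protein response had 14 of 24 above 0 and a median of 0.01. The medians of these 3 lists changed sign in fits without 1 library.

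Genes of amyloid and tau were evenly divided, 16 of 32 above 0 with a median of -0.01. Bace2, a protease related to the beta-secretase, was at 8.91, 10.4, 10.4, 9.24 and 12.2 CPM with HSP70 and 4.999, 6.35, 7.56, 6.04 and 6.91 CPM with YB-1, without overlap and with a fold change of -0.68 ± 0.20. It was the only one of the 32 at an unadjusted p under 0.05, against 0.984% of all genes on the lower side. Lysosomal genes had a median of 0.08 (0.030 without YB-1 replicate 2, 0.12 without HSP70 replicate 4), with Hexa, a hexosaminidase subunit, at 90.9, 97.6, 110.4, 95.7 and 112 CPM with HSP70 and 117, 129.5, 113, 122 and 117 CPM with YB-1 and Gla, the alpha-galactosidase, at 23.7, 24.2, 21.1, 22.5 and 27.2 CPM with HSP70 and 18.8, 18.7, 20.3, 20.5 and 18.3 CPM with YB-1. Both genes' groups were separate, in opposite directions. All 7 tested of 13 genes of the mitochondrial genome were above 0, with a median of 0.37. It was 0.17 without HSP70 replicate 4, which had the lowest level of the 10 libraries. Another 5 of the 13 had no read in any hippocampal library, and why was not tested. The 75 nuclear respiratory chain genes had a median of 0.06, which became -0.13 without YB-1 replicate 4.

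The genes with the smallest p that are not described above included several with few reads. On the higher side Wipf3, an actin regulator related to WIP, was at 272, 296, 249, 237 and 277 CPM with HSP70 and 389, 459, 324, 321 and 349.9 CPM with YB-1, without overlap, and its fold change was 0.47 ± 0.12. AW112010, an interferon-responsive transcript of myeloid cells, was at 5.52, 3.11, 5.57, 4.73 and 4.12 CPM with HSP70 and 11.95, 9.53, 5.94, 7.55 and 14.02 CPM with YB-1. Its lowest YB-1 library, at 5.94 CPM, lay just above the highest HSP70 library at 5.57 CPM, and the fold change was 1.09 ± 0.27. Batf2, an interferon-induced transcription factor, was at 11.2, 4.06, 4.12, 6.21 and 4.12 CPM with HSP70 and 23.04, 17.2, 12.2, 5.36 and 21.2 CPM with YB-1, with a fold change of 1.40 ± 0.38 and YB-1 replicate 4 inside the HSP70 range.

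Mlxipl, the glucose-responsive factor ChREBP, was at 1.74, 1.31, 1.55, 1.33 and 1.22 CPM with HSP70 and 3.59, 3.299, 1.76, 3.84 and 4.17 CPM with YB-1, with YB-1 replicate 3 just above the HSP70 range. Zfp811, a zinc finger gene, was at 1.45, 0.717, 1.24, 1.48 and 0.763 CPM with HSP70 and 3.15, 3.79, 2.43, 2.47 and 3.79 CPM with YB-1. Their fold changes were 1.21 ± 0.33 and 1.43 ± 0.34, and neither gene's groups overlapped. The other genes of the rule on this side were Igkv4-57-1 (2.11 ± 0.52), the adhesion receptor Adgre5 (0.86 ± 0.23), the serpin Serpina3g (1.13 ± 0.32) and the costimulatory receptor Cd40 (1.51 ± 0.44). Igkv4-57-1 is an immunoglobulin segment and belongs to the immunoglobulin list. 

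On the lower side Pmp22, a membrane protein of peripheral myelin and fibroblasts, was at 20.3, 20.2, 22.9, 28.7 and 23.95 CPM with HSP70 and 12.3, 16.01, 20.1, 15.1 and 11.5 CPM with YB-1, and its YB-1 replicate 3, at 20.1 CPM, lay just under HSP70 replicate 2 at 20.2 CPM. The groups did not overlap, and the fold change was -0.64 ± 0.18. The sorting nexins Snx14 and Snx7 had fold changes of -0.57 ± 0.17 and -0.78 ± 0.25, and the calcium-binding protein gene Cib2 -0.50 ± 0.16. Of the 63 genes whose groups did not overlap, 11 are in any of the lists and 1, Ifi35, in the interferon lists. Of all 13723 genes tested, 1211 are in any of the lists and 53 in the interferon lists.

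The most variable genes were not those with the smallest p. Over genes with a mean of at least 5 CPM, the largest SD of log2 CPM within treatments was 3.77, for the ribosomal pseudogene Rps2-ps13, against a median of 0.34 over all genes. It was at 1.07, 263.7, 141, 144 and 2.59 CPM with HSP70 and at 230.1, 410.2, 0.405, 335 and 122 CPM with YB-1, present or nearly absent by library in both groups. Gdpd3, a lysophospholipase D, was at 0.0969, 0.119, 0, 24.9 and 23.04 CPM with HSP70 and at 39.9, 21.02, 10.7, 0 and 25.3 CPM with YB-1, the same kind of pattern. Rpsa-ps10 was at 115 CPM in HSP70 replicate 1 and at most 1.37 CPM in the other 4 HSP70 libraries. In the YB-1 group it was at 106 to 223 CPM in 4 libraries and at 2.61 CPM in replicate 4. The other 7 of the top 10 were Rps2-ps10, Rps3a3, Gm8909, AC165951.1 and the immunoglobulin segments Igkv12-98, Ighv1-82 and Ighv5-17.

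The cortex of the same treatments served to ask whether the difference depends on the tissue. The interaction test called 0 of 14616 genes (0%), with 227 at an unadjusted p under 0.05 (1.55%) and a lowest adjusted p of 1. Of the 53 antiviral and GTPase genes 51 were above 0 in the hippocampus and 52 in the cortex, and 0 had an unadjusted interaction p under 0.05. Deviations from the group means in hippocampal and cortical libraries with the same number had correlations over genes of 0.198 to 0.624 in all 10 pairs. Differently numbered pairs were not set beside them, and the 2 tissues are not taken as independent evidence. With treatment and replicate number as a block, the interaction test again called 0 genes, with 409 at an unadjusted p under 0.05, and 1 of the 53 genes, Gbp5, had an unadjusted interaction p under 0.05 (0.0278, adjusted p 0.999 in edgeR's test). Their medians were 0.71 and 0.47 for the antiviral genes and 0.88 and 0.75 for the GTPases. For the meningeal markers they were -0.34 in the hippocampus and -0.002 in the cortex, where 11 of 22 were above 0.

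**Figure D5:**
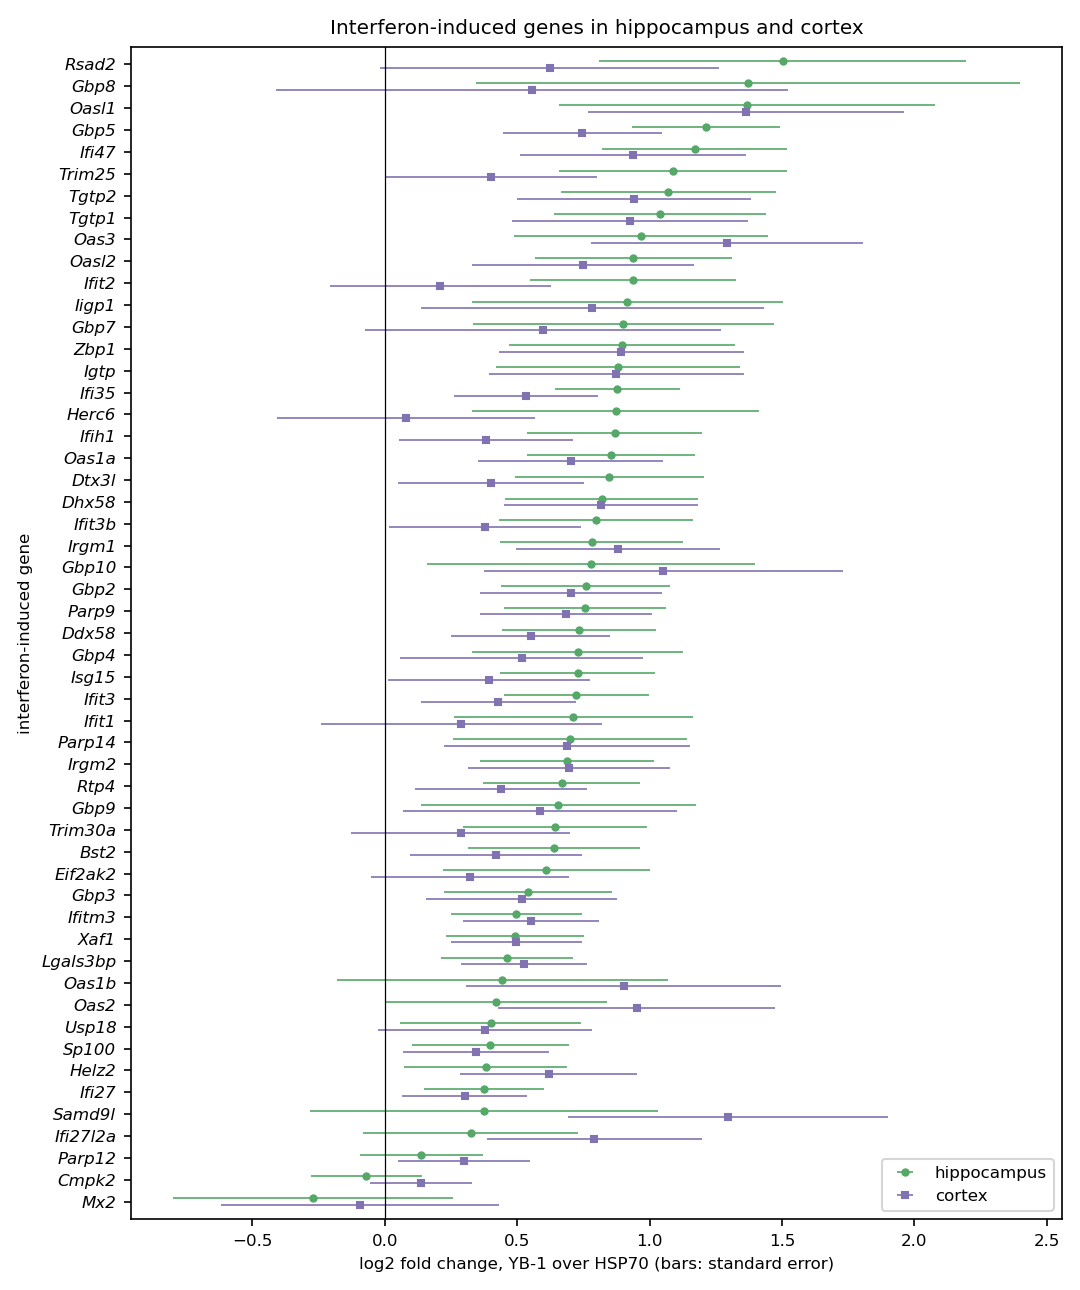
Log2 fold change, YB-1 over HSP70, of 53 antiviral and GTPase genes in hippocampus (circles) and cortex (squares), with standard errors. In the hippocampus 51 of the 53 lie above 0 and in the cortex 52, and the bars of the 2 tissues overlap for most genes. Hippocampal values come from the fit of that tissue alone and cortical values from the fit over all 4 groups.

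The genes with the smallest interaction p were Zfp811, Perp and Esco1 on the side of the hippocampus and Gm13456, Krt2 and Cpne2 on that of the cortex. Zfp811 had a difference between tissues of 1.93 ± 0.48 on the log2 scale, where the hippocampal fold change was 1.43 and the cortical one -0.49, with an unadjusted p of 0.000444 and an adjusted p of 1 in edgeR's test. Perp, a desmosomal and p53-induced gene, had a difference of 1.74 ± 0.44, Esco1, a cohesin acetyltransferase, 2.19 ± 0.67, and Cpne2, a copine, -0.87 ± 0.26. Among the meningeal and collagen genes named above, Crabp2, Col6a2 and Col23a1 had unadjusted interaction p of 0.00528, 0.00427 and 0.00638 in that test (adjusted p 1). Their cortical fold changes were 0.03, 0.23 and 0.14. These genes were picked for their interaction p after the values were seen, and the other members' values are not given here. Of all genes in that test, 1.55% had an unadjusted p under 0.05. Whether the meningeal or collagen list differs between tissues was not tested.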

How the data were processed

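Poly(A) RNA with an integrity number of 8 or more was made into libraries with a directional kit and read from single ends, per the labels' protocols. The authors deposited 1 file of raw read counts per library, whole numbers for 55487 Ensembl gene entries, and Trimmomatic, STAR and featureCounts with GRCm39 are named per the submitters' processing notes; their versions, the annotation and the strand setting were not given in the sources used here, so reads of an overlapping or antisense partner may be included in a gene's count. The 12 summary entries that name no gene were dropped; reads outside genes were 2.49% to 4.46% and ambiguous reads 4.2% to 4.56% of a hippocampal library. Symbols came from GENCODE M21 by Ensembl identifier (99.4% matched), used for names only because its build differs. Promoters came from RefSeq windows of GRCm38.p6.

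The 10 hippocampal libraries were fitted alone in edgeR 4.0.16 (R 4.3.3) by robust quasi-likelihood with two-sided F-tests after filterByExpr and TMM scaling and Benjamini-Hochberg adjustment at 0.05; the interaction with cortex was fitted over all 4 groups of 5. CPM are TMM-scaled, log2 CPM use a prior count of 2, and values separated by commas run in the order of replicates 1 to 5. Errors beside fold changes are standard errors. Cortical fold changes and their errors came from the fit over all 4 groups. Alternatives used DESeq2 1.42.0, limma 3.58.1 and other settings given further on.

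Of 1020 symbols in 57 gene lists, 1010 matched, and 1211 list genes were tested, immunoglobulin segments included. The members and lists were chosen with earlier results of these data known. Named genes are the 4 chaperone genes, 12 genes per direction by smallest p, and per list the 3 with the smallest p and the one with the most reads, a part of which is printed; some genes of this rule are not reported here. The 10 most variable genes and 3 interaction genes per direction complete the rule. Ifit3 was added for its promoter, and Cmpk2 and Mx2 as exceptions, after their values were seen.

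No 2 libraries of a group were duplicates (chi-square per degree of freedom at least 10.1). Same-numbered libraries of the 2 treatments had correlations of mixed sign (-0.315 to 0.539), so the numbers were not taken as pairs. Between tissues all 10 same-numbered pairs had correlations above 0 (0.198 to 0.624). Differently numbered pairs were not set beside these.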

Additional observations from a re-analysis of the deposited data

Results flagged for a closer look

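In 364 groups of 5 hippocampal libraries, for single genes and for list levels, 1 library was set against the other 4 by its gap to the nearest of them divided by the range (Dixon's criterion, critical value 0.71). It was passed by 24 groups, 18 for genes and 6 for lists. Chance passes about 1 in 20 such groups.

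Among interferon, immune and immunoglobulin genes, HSP70 replicate 1 stood high for Stat2 (33.9 CPM, others at most 19.5) and Tgtp2 (13.9 CPM), and YB-1 replicate 5 for Cd4 (11.7 CPM, others at most 4.52). HSP70 replicate 3 stood high for the segments Ighv5-17 (17.9 CPM) and Igkv12-98 (11.4 CPM). Fcrls stood at 1.62 CPM in YB-1 replicate 3, against at most 0.611 CPM in the other 4 libraries of its group. The NF-kappaB level was -0.42 in HSP70 replicate 2, as difference from the mean of the 10 libraries on the log2 scale.

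Among neuronal genes, HSP70 replicate 1 stood high for Npas4 (6.78 CPM, others at most 2.29) and Bdnf (11.4 CPM). YB-1 replicate 4 stood high for the NMDA receptor gene Grin2b (207 CPM, others at most 122), and YB-1 replicate 2 for Dsp (36.05 CPM). The pan-neuronal level was -0.21 in YB-1 replicate 2, and the thalamic level 1.06 in HSP70 replicate 4.

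Among glial and border genes, HSP70 replicate 4 stood high for Car2 (124 CPM) and the scavenger receptor gene Stab1 (26.6 CPM), YB-1 replicate 3 for Apod (374 CPM), YB-1 replicate 1 for the precursor marker Pdgfra (29.3 CPM) and HSP70 replicate 5 for Prlr (7.93 CPM). The collagen level was -0.38 in HSP70 replicate 5 and the endothelial level -0.22 in YB-1 replicate 4.

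Among chaperone genes and pseudogenes, HSP70 replicate 5 stood low for Hspa1b (5.03 CPM, others at least 11.03), YB-1 replicate 4 high for Hspe1 (64.8 CPM, others at most 38.002) and HSP70 replicate 1 high for Rpsa-ps10 (115 CPM). The unfolded protein response level was -0.23 in HSP70 replicate 2. What sets these libraries apart was not tested.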

How the results depend on the processing

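The count of 0 genes called held in all 19 alternatives of the hippocampal comparison and all 25 of the interaction, DESeq2, limma-voom, the unfiltered fit and each fit without 1 library included. The lowest adjusted p was 0.118 with DESeq2, 0.476 without the filter and 0.67 with limma-voom. The number of genes at an unadjusted p under 0.05 went from 329 to 1105 without the filter, 729 with limma-voom and 746 with the choroid plexus level as covariate, and lay between 209 (without YB-1 replicate 5) and 541 (without HSP70 replicate 5) when 1 library was left out, with 537 without YB-1 replicate 4. For the interaction it went from 227 to 1194 without the filter and 409 with treatment and replicate number as a replicate block, and to 412 without HSP70 replicate 1 and 367 without YB-1 replicate 2 of the hippocampus. With replicate number as a block between treatments, where it is only a number, the hippocampal fit also called 0, and 1 of 5 libraries correlated best with its own number. Of 115 genes 112 kept their sign in every setting. Most of them were named for a small p in these same libraries, so this count was largely set by the choice. In 33 of the 115 the fold change moved by more than 1.5 times when 1 library was left out. Hspa1b was at -0.019 and Hspa8 at 0.011 with limma-voom, and Gfap at -0.019 with the immunoglobulin covariate. Without 1 library Hspa1b lay between -0.051 and 0.18, and Hspa8 between -0.063 and 0.025. The cause was not tested. Of 57 list medians 28 kept their sign in every setting, among them those of the antiviral, GTPase, class I, class II, complement, myelin and meningeal lists. Depth limits genes of few reads, such as Fcrls and F13a1.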

Other observations

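Lists not described above lay near the median of all genes or varied by library. Erythroid genes, markers of red blood cells, had 4 of 6 below 0 with a median of -0.44, which became 0.004 without HSP70 replicate 5. Cytosolic ribosomal protein genes had 56 of 78 above 0 and a median of 0.10, or -0.055 without YB-1 replicate 4, and the proteasome list 27 of 33 with a median of 0.10, or -0.012 without the same library. Autophagy genes were below 0 in 17 of 22 cases, with a median of -0.06 that lay between -0.07 and -0.04 without 1 library. The circadian clock, cholesterol synthesis, antioxidant, neurotrophin and glucocorticoid lists had medians between -0.02 and 0.03.

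Some genes without overlap between the groups lie in none of the lists, and are named here after their values were seen. Pim1, a cytokine-induced kinase, was at 2.13, 1.43, 2.27, 2.22 and 0 CPM with HSP70 and at 4.67, 2.69, 4.86, 3.57 and 4.74 CPM with YB-1. Nfatc1, a calcineurin-dependent transcription factor, was at 6.18 to 8.91 CPM and 9.2 to 12.3 CPM. Fbln1, a matrix protein, was at 27.5 to 40.8 CPM with HSP70 and 16.95 to 26.5 CPM with YB-1, and Slco4a1, a transporter, at 1.13 to 2.14 CPM and 0.109 to 0.961 CPM. The adjusted p of each in edgeR's test was 1, and genes whose groups do not overlap made up 0.459% of all genes tested.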
